A study of Mus musculus with 41 samples.

Results

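The genotype comparison in marginal zone B cells set 3 libraries labelled 1Mek2 against 3 wild-type (wt) libraries, 6 of the 41 libraries of the series, and members were chosen by sorted subset and genotype label alone. The cells came from spleens of mice aged 3 to 5 months and were gated as B220+CD93-CD138-GL7-FAS-CD21+CD23-. The 1Mek2 label stands for Mek1flox/flox Mek2+/- Tg+/Vav1-icre mice, with both Mek1 alleles floxed, a single intact Mek2 allele and the Cre transgene. The controls are given as wild type with no allele or transgene named. Vav1-icre is active across blood cells, so the deletion is not limited to B cells, and macrophages, T cells and other blood cells of these mice carry it too. Polyadenylated RNA was sequenced in bulk. In bulk RNA, fewer cells of a type and less RNA per cell cannot be told apart. Each of the 6 libraries came from a different animal by the number in its name, and p-values measure the spread between these animals.

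Marginal zone B cells sit at the border of the splenic white pulp, sample blood-borne antigen through the complement receptor CD21 and respond fast, often without T cell help. Their formation depends on NOTCH2 signalling, and their position depends on sphingosine-1-phosphate receptors and integrins. MEK1 (gene Map2k1) and MEK2 (gene Map2k2) are the paired kinases that phosphorylate ERK below RAS and RAF, downstream of the B cell receptor among others. The comparison asks which transcripts differ when this step is reduced.

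Total counts of the 6 libraries ran from 14060655 to 34925667, over gene spans that include introns. Wild-type replicate 2 was the deepest library and stood apart in base composition: its log2 deviations from the mean of the 6 libraries had a correlation of -0.35 with transcript GC content across genes, against -0.09 to 0.24 in the other 5. Its exon reads were 77.8% of its count total, against 50.8% to 66.4% in the others. Pairwise correlations of log2 CPM (counts relative to library size, scaled by TMM) across genes ran from 0.761 to 0.894, and both extremes were pairs of wt libraries. The TMM factors were 1.22, 1.186 and 0.916 in wt replicates 1, 2 and 3 and 0.876, 0.936 and 0.921 in 1Mek2, so scaling itself differed between the groups. By the Y-linked gene Ddx3y, wt replicate 3 and 1Mek2 replicates 2 and 3 were male, so sex was uneven between the groups.

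The sort was checked against marker genes in the 8 follicular libraries of the same study, scaled together. Cr2, which encodes CD21, ran from 1180 to 1860 CPM in the 6 marginal zone libraries and from 272 to 837 in the follicular ones. Fcrl5, an Fc receptor-like protein, ran from 142 to 723 CPM against 15.9 to 32.2, and the membrane-repair protein gene Myof from 18 to 151 against 0.729 to 2.7. Dtx1, a NOTCH target, ran from 408 to 1110 CPM against 83.7 to 371. Fcer2a, which encodes the gated-out CD23, ran from 2.25 to 63.8 CPM against 236 to 1160. These 5 markers separated the subsets without overlap in both genotypes, whereas Cd1d1, Cd9, S1pr3 and Asb2 overlapped. Asb2 was at 7.08 CPM in 1Mek2 replicate 1, inside the follicular range, although it reached 191 CPM in another 1Mek2 library.

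**Figure D1:**
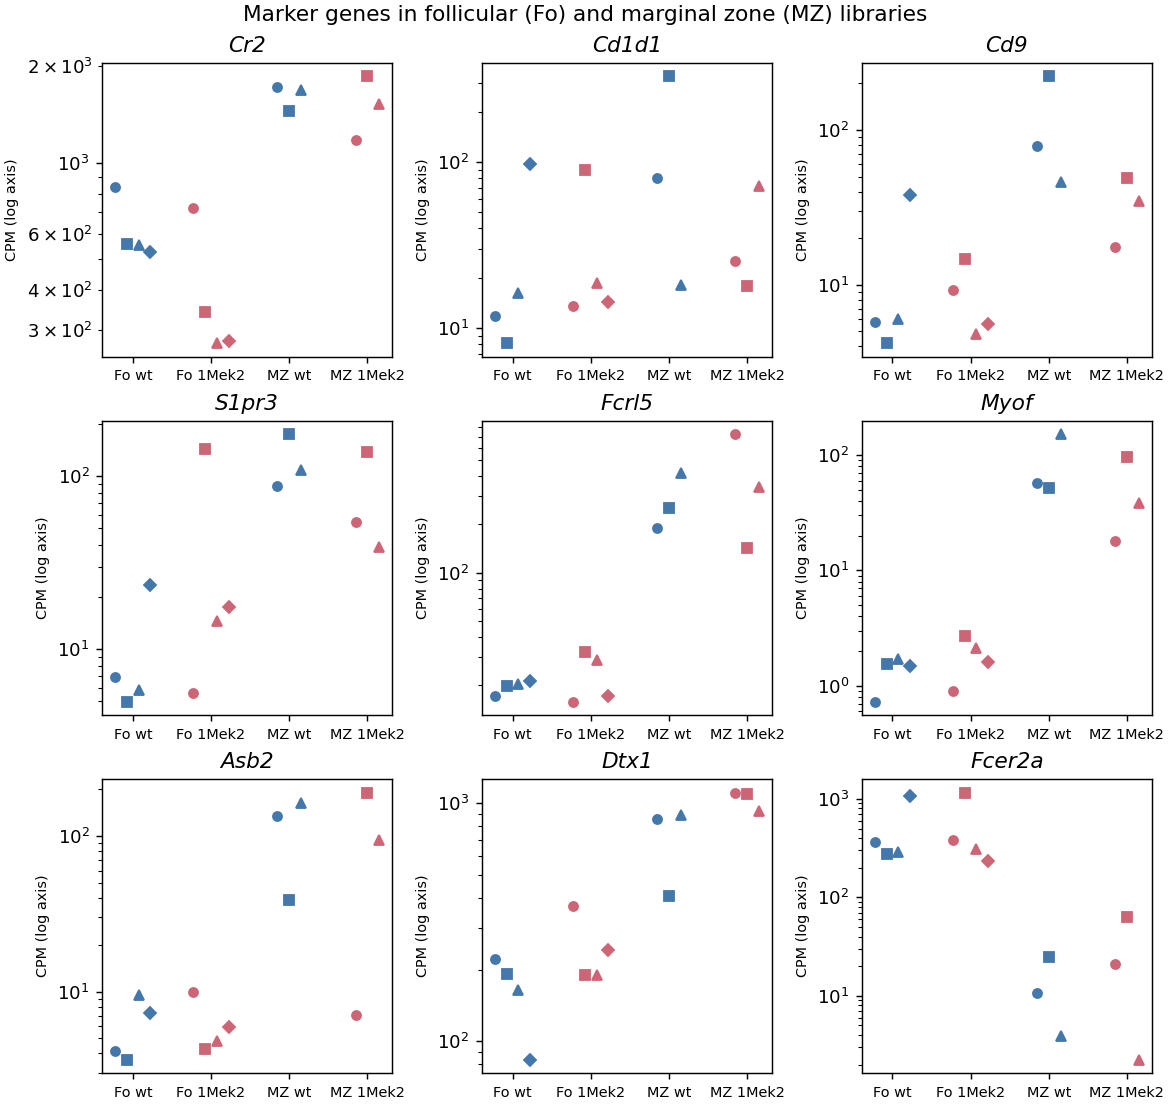
CPM (log axis) of 9 marker genes in follicular (Fo) and marginal zone (MZ) libraries, wt in blue and 1Mek2 in red, 1 point per library with its shape giving the replicate number. Cr2, Fcrl5, Myof and Dtx1 were higher and Fcer2a lower in every marginal zone library than in any follicular library.

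The targeted genes did not settle the genotype labels, so the groups are called by their labels throughout. Map2k1 (chr9:64093066-64160887, GRCm39) was at 310, 256 and 667 CPM in wt replicates 1, 2 and 3 and at 328, 365 and 332 CPM in 1Mek2 replicates 1, 2 and 3. The groups overlapped, with a log2 fold change of -0.27 ± 0.46 (SE) and an adjusted p of 0.899 by the edgeR quasi-likelihood test. Without wt replicate 3 the log2 fold change was 0.30. Counted on exons alone, Map2k1 was at 53.2, 193 and 199 CPM in wt and at 78.5, 27.5 and 28.1 CPM in 1Mek2, a log2 fold change of -1.73 ± 0.74 with an adjusted p of 0.526. Here wt replicates 2 and 3 were high, and wt replicate 1 fell inside the 1Mek2 range. Exon reads made up 62.9% of the Map2k1 span count in wt replicate 2, but 11.6% and 15.5% in wt replicates 1 and 3 and 14.3%, 4.0% and 5.2% in the 1Mek2 libraries. The labels do not say which exons are floxed, and reads per exon were not analysed here.

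Map2k2 (chr10:80941749-80960531), of which the label implies a single intact copy, was at 117, 48.5 and 91.8 CPM in wt and at 249, 215 and 153 CPM in 1Mek2. All 3 libraries labelled 1Mek2 were above all wt libraries. The log2 fold change was 1.26 ± 0.49 with an adjusted p of 0.530, 1.77 on exon reads, and 0.92 after a correction for GC content. A count over the gene does not tell an intact from a disrupted transcript.

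**Figure D2:**
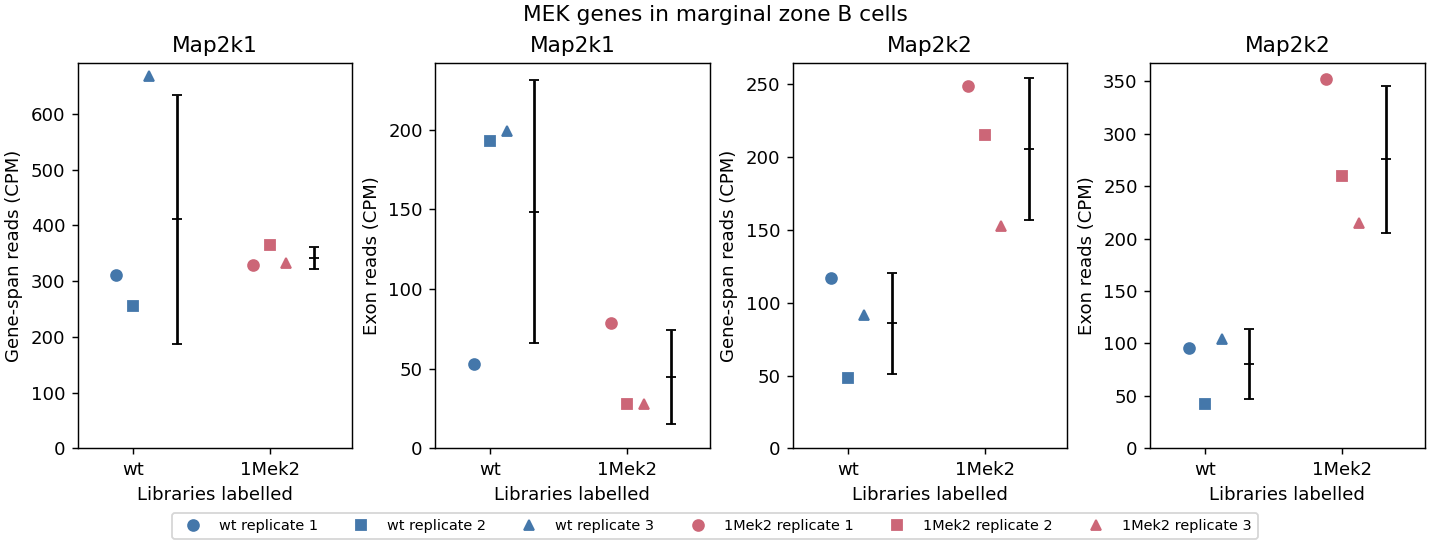
CPM of Map2k1 and Map2k2 in the 6 marginal zone libraries, from gene-span reads and from exon reads, 1 point per library, with the mean and SD of 3 libraries as a black bar. Exon reads of Map2k1 were high in wt replicates 2 and 3 (193 and 199 CPM), and Map2k2 was higher in every 1Mek2 library than in any wt library.

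Across the transcriptome no gene passed the threshold. Of 12907 genes tested, 0 were called at an adjusted p of 0.05 (percent called 0), and the lowest adjusted p was 0.519. At an unadjusted p under 0.05 there were 1132 genes, 582 higher in 1Mek2 (4.51%) and 550 lower (4.26%). In 936 genes (7.25%) all 3 libraries labelled 1Mek2 lay above all 3 wt libraries, and in 918 (7.11%) all lay below. limma voom also called 0 genes, with 1071 at an unadjusted p under 0.05, while DESeq2 called 201 (82 higher, 119 lower), 171 of which did not overlap between the groups. Every one of the 201 had the same sign as in the edgeR fit. The spread was wide: the common biological coefficient of variation was 0.777. The genes described next are therefore those of lowest p among genes without overlap, all with an adjusted p of 0.519 by edgeR; DESeq2 called all 24 of them.

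Among the 12 genes of lowest p in the higher direction, Timm13, a chaperone of protein import into mitochondria, was at 199, 86.4 and 243 CPM in wt and 877, 493 and 954 in 1Mek2 (log2 fold change 2.14 ± 0.51). Atp5f1d, the delta subunit of ATP synthase, was at 206, 81.6 and 216 CPM in wt and 621, 571 and 820 in 1Mek2 (2.00 ± 0.49). Tspo, a protein of the outer mitochondrial membrane, was at 214, 172 and 249 CPM in wt and 739, 513 and 909 in 1Mek2 (1.77 ± 0.43). In each of the 3, wt replicate 2 was the lowest library. Without wt replicate 2 the log2 fold changes were 1.82, 1.68 and 1.65.

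Polr2f, a subunit shared by the nuclear RNA polymerases, was at 61.1, 41.4 and 63.7 CPM in wt and 271, 213 and 214 in 1Mek2 (log2 fold change 2.07 ± 0.45). Dctpp1, which hydrolyses dCTP, was at 33.7, 19.0 and 19.9 CPM in wt and 123, 85.8 and 159 in 1Mek2 (2.34 ± 0.57). Mettl26 was at 90.9, 52.0 and 78.3 CPM in wt and 467, 208 and 367 in 1Mek2 (2.24 ± 0.49). The zinc finger gene Flywch1, the serine protease gene Prss36, Ccdc9 and Rex1bd had log2 fold changes of 2.68, 3.39, 2.35 and 2.54. Pianp was at 12.4, 19.0 and 6.19 CPM in 1Mek2 but at 0.117, 0 and 0 in wt, at or under what 3 counts amount to there (0.0859 to 0.147 CPM), so no fold is given. The last of the 12 was a predicted gene.

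The 12 in the lower direction were led by Cldnd1, a claudin-domain membrane protein gene, at 32.1, 117 and 169 CPM in wt and 4.64, 6.64 and 3.01 in 1Mek2 (log2 fold change -4.47 ± 0.80, unadjusted p 0.000123). Exosc9, a subunit of the RNA exosome, was at 15.9, 68.2 and 63.3 CPM in wt and 3.99, 2.35 and 1.75 in 1Mek2 (-4.19 ± 0.92). Manea, a Golgi mannosidase that trims N-glycans, was at 31.4, 99.8 and 73.3 CPM in wt and 7.82, 7.69 and 6.51 in 1Mek2 (-3.21 ± 0.74). On exon reads the groups of Manea overlapped, with -1.86 ± 1.06. In Cldnd1 and Exosc9 wt replicate 1 was the low library of its group. Separation from every 1Mek2 library was the rule by which these genes were chosen.

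Among the same 12, Tbp, the TATA-binding protein, was at 10.3, 69.4 and 107 CPM in wt and 6.11, 3.56 and 4.81 in 1Mek2 (-3.69 ± 0.93). Gtf2a2, the small subunit of TFIIA, which binds TBP at promoters, was at 54.0, 123 and 57.3 CPM in wt and 7.98, 14.8 and 4.23 in 1Mek2 (-3.11 ± 0.76). Abt1, a nucleolar activator of basal transcription, had a log2 fold change of -4.44 ± 1.05, the elongation factor gene Ell3 one of -2.48 ± 0.63, and Casp6, an executioner caspase, one of -3.37 ± 0.86. The remaining 4 were predicted or unnamed genes. Leaving out wt replicate 2 or correcting for GC kept the sign of each of the 8 lower genes named. Manea went to -2.83 and -2.82 and Casp6 to -2.56 and -3.18. For genes chosen for no overlap, leaving out a library could hardly reverse the sign.

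**Figure D3:**
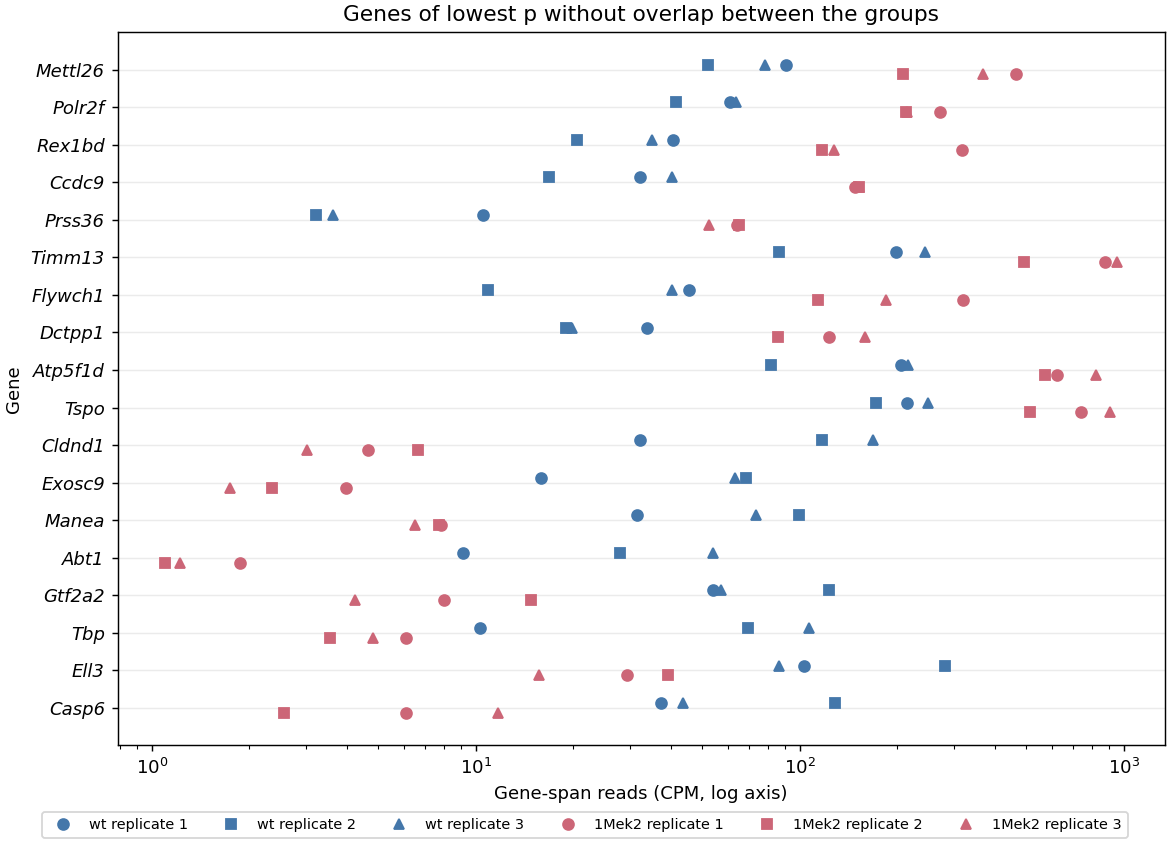
Gene-span CPM (log axis) of the named genes of lowest p without overlap, 10 higher and 8 lower in 1Mek2, 1 point per library (wt blue, 1Mek2 red, shape by replicate). Pianp, which had 0 in some libraries, and genes with predicted names are not drawn. wt replicate 1 was the closest wt library to the 1Mek2 range in Cldnd1, Exosc9, Abt1 and Tbp.

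Base composition moved with the comparison. Of the genes tested, 91.6% had a transcript GC content from GENCODE vM21, and 9518 with a mean of at least 5 CPM were split into 5 groups of similar size by it. The median log2 fold change went from -0.21 in the lowest group (31.0% to 43.6% GC) through -0.10, 0 and 0.18 to 0.52 in the highest (55.0% to 70.7%). The share of genes with all 1Mek2 libraries above all wt libraries went from 3.74% to 15.3%, and the share below from 9.67% to 2.61%. Without wt replicate 2 the medians ran from -0.03 to 0.38, and after GC correction from 0.11 to 0.24. Among the named genes, Timm13 and Polr2f had longest transcripts of 58.2% and 52.9% GC, and Cldnd1 and Manea of 44.5% and 38.2%. The first 120 coding bases of their longest coding transcript are shown from the start codon, from GENCODE vM21 (GRCm38), with G and C in capitals, so that the difference can be seen.
Timm13: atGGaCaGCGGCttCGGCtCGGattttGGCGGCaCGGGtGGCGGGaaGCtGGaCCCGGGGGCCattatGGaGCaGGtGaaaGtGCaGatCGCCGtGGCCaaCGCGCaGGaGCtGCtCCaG
Polr2f: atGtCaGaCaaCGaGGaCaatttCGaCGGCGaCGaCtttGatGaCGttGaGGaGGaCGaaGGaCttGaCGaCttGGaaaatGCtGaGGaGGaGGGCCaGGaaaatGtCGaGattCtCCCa
Cldnd1: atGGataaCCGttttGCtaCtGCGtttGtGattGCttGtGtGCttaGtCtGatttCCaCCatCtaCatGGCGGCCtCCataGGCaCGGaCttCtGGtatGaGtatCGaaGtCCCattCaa
Manea: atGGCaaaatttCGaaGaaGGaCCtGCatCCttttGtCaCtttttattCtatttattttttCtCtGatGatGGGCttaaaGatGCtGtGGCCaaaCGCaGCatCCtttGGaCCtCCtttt
G and C made up 65.8% and 50.8% of the stretches of Timm13 and Polr2f, and 46.7% and 39.2% of those of Cldnd1 and Manea. After GC correction the log2 fold changes were 1.81, 2.05, -4.23 and -2.82, so these 4 stayed on their side. How far base composition contributes to smaller differences was not tested.

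**Figure D4:**
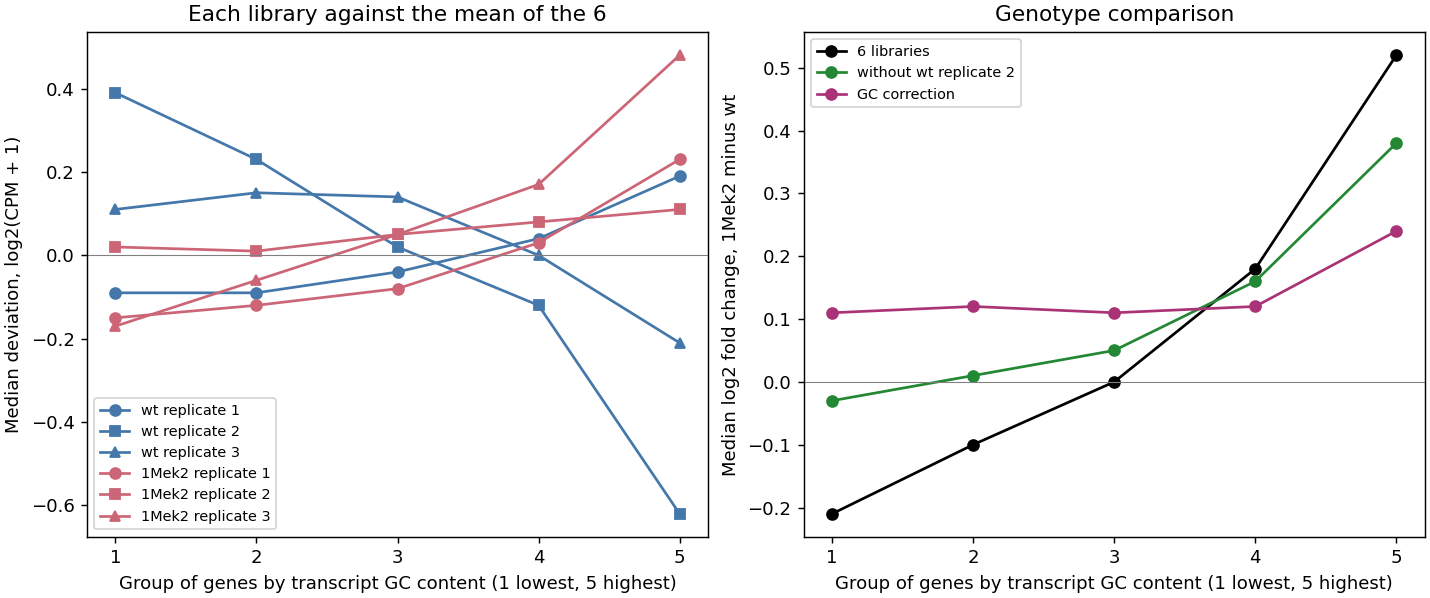
Left, median deviation of each library from the mean of the 6, log2(CPM + 1), by group of transcript GC content (1 lowest, 5 highest). Right, median log2 fold change (1Mek2 minus wt) by group with 6 libraries, without wt replicate 2 and after GC correction. wt replicate 2 goes from 0.39 to -0.62 on the left, and the slope on the right is flatter without it.

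Nuclear genes of oxidative phosphorylation, which build the respiratory chain and ATP synthase, leaned higher in the libraries labelled 1Mek2. Of 36 members tested, 15 (41.7%) were higher without overlap and 1 was lower, beside 7.25% and 7.11% of all genes, and 0 were called. The list's median log2 fold change was 0.69, beside 0.02 for all genes. Uqcrq, a subunit of complex III, was at 209, 82.3 and 175 CPM in wt and 544, 439 and 679 in 1Mek2 (log2 fold change 1.83 ± 0.48). Cox6a1, of cytochrome oxidase, was at 173, 128 and 133 CPM in wt and 333, 326 and 463 in 1Mek2 (1.37 ± 0.42, and 0.65 after GC correction). Ndufb8, of complex I, was at 276, 176 and 563 CPM in wt and 1380, 776 and 1050 in 1Mek2 (1.66 ± 0.51). In all 3 the highest wt library stayed below the lowest 1Mek2 library. Not every member went this way: 24 of 36 had a positive log2 fold change, beside 6562 of 12907 over all genes. The lowest was that of Ndufb5, also of complex I, with -1.86. Without wt replicate 2 the counts without overlap were 15 higher and 1 lower of 36, with a median of 0.56 (all genes 9.39% and 9.67%). After GC correction they were 11 and 2 of 32 with a median of 0.73 (all genes 7.74% and 6.28%), and on exon reads 13 and 2 of 36 (7.55% and 7.18%). In follicular cells the list's median was 0.79.

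The respiratory chain genes encoded by mitochondrial DNA did not show this. Of 10 tested, 1 (ND2) was higher without overlap and 3 had a positive log2 fold change, with a median of -0.24 (0.04 without wt replicate 2). CYTB, of complex III, was at 2000, 2870 and 735 CPM in wt and 977, 779 and 1110 in 1Mek2, with overlap. Mitochondrial mRNAs took 0.977% of the counts in wt replicate 2 and 0.398% to 0.597% in the other 5 libraries. Of the 10 tested, COX2, COX3 and ATP6 were at or below 6.22 CPM in every library, whereas COX1 was at 506 to 1670. ND3, ND4L and ATP8, also among the 13 listed, were at or below 0.75 CPM and were not tested. The median and the share of counts thus rest in part on genes with few reads. Why these were low was not tested.

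Cytosolic ribosomal protein genes leaned the same way as the nuclear respiratory genes. Of 77 cytosolic ribosomal protein genes tested, 25 (32.5%) were higher without overlap and 0 lower, beside 7.25% and 7.11% of all genes. A positive log2 fold change was found in 50 of the 77, with a list median of 0.34 and 0 called. Rpl8 was at 512, 397 and 430 CPM in wt and 984, 774 and 1080 in 1Mek2 (1.08 ± 0.40). Rps15 was at 391, 231 and 786 CPM in wt and 1160, 1050 and 1280 in 1Mek2 (1.31 ± 0.50). After GC correction Rpl8 was at 0.71 and Rps15 at 0.72. In TPM, which has no TMM scaling, the groups of Rps15 overlapped (up to 4600 in wt, from 4310 in 1Mek2). Such genes have many near-identical pseudogenes, so their counts are uncertain where reads could be split. Without wt replicate 2 there were 26 higher and 0 lower without overlap (all genes 9.39% and 9.67%). After GC correction there were 20 and 0 (all genes 7.74% and 6.28%), and on exon reads 25 and 0 of 78 (7.55% and 7.18%). Among 77 mitochondrial ribosomal protein genes, 13 (16.9%) were higher and 4 (5.19%) lower without overlap, 42 had a positive log2 fold change, and the median was 0.10. Mrpl57 was at 78.6, 46.6 and 55.0 CPM in wt and 236, 172 and 249 in 1Mek2 (1.87 ± 0.46). Mrps7 went the other way, at 32.1, 57.7 and 6.47 CPM in wt and 3.83, 1.73 and 2.27 in 1Mek2 (-3.62 ± 1.04).

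Promoters of these lists were looked at for the ETS core motif CCGGAAG on either strand, since some ETS factors are known substrates of ERK. Windows of 300 bases, 250 before and 50 after the start, came from RefSeq (GRCm38.p6). The motif was in 31.8% of 22 oxidative phosphorylation promoters, 38.6% of 57 cytosolic and 35.3% of 68 mitochondrial ribosomal ones, beside 19.1% of 9634 promoters of genes tested and 9.12% of all 27025 in the table. Among all genes, it was in 21.2% of promoters of genes higher without overlap, 19.7% of those lower and 18.8% of the rest. The member of lowest p with a match in each list is shown, the match in capitals.
Cox6a1 (chr5:115348909-115349208, minus strand): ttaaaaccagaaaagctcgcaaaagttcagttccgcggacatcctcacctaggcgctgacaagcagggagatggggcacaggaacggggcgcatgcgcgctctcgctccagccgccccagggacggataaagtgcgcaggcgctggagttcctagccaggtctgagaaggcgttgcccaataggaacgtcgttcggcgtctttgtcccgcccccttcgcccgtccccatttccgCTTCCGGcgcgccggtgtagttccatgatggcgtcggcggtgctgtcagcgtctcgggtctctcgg
Rpl26 (chr11:68901316-68901615, plus strand): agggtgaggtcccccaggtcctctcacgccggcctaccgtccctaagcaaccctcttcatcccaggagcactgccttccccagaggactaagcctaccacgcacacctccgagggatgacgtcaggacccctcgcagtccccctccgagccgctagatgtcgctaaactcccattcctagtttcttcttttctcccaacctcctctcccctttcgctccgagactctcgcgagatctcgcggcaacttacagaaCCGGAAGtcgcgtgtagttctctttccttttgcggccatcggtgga
Mrpl57 (chr14:57825989-57826288, plus strand): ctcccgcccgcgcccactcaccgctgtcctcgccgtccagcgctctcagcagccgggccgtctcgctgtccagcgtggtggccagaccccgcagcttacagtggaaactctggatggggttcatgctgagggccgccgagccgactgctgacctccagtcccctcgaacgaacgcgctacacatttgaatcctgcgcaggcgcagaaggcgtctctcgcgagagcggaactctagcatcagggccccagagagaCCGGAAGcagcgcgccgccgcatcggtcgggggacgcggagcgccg
Rpl26 itself was at 237, 166 and 355 CPM in wt and 531, 488 and 612 in 1Mek2 (1.11 ± 0.44, and 0.71 with GC correction and without wt replicate 2). In TPM its groups overlapped (up to 2420 in wt, from 2290 in 1Mek2). A match in these letters is a description and not a measured binding site.

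**Figure D5:**
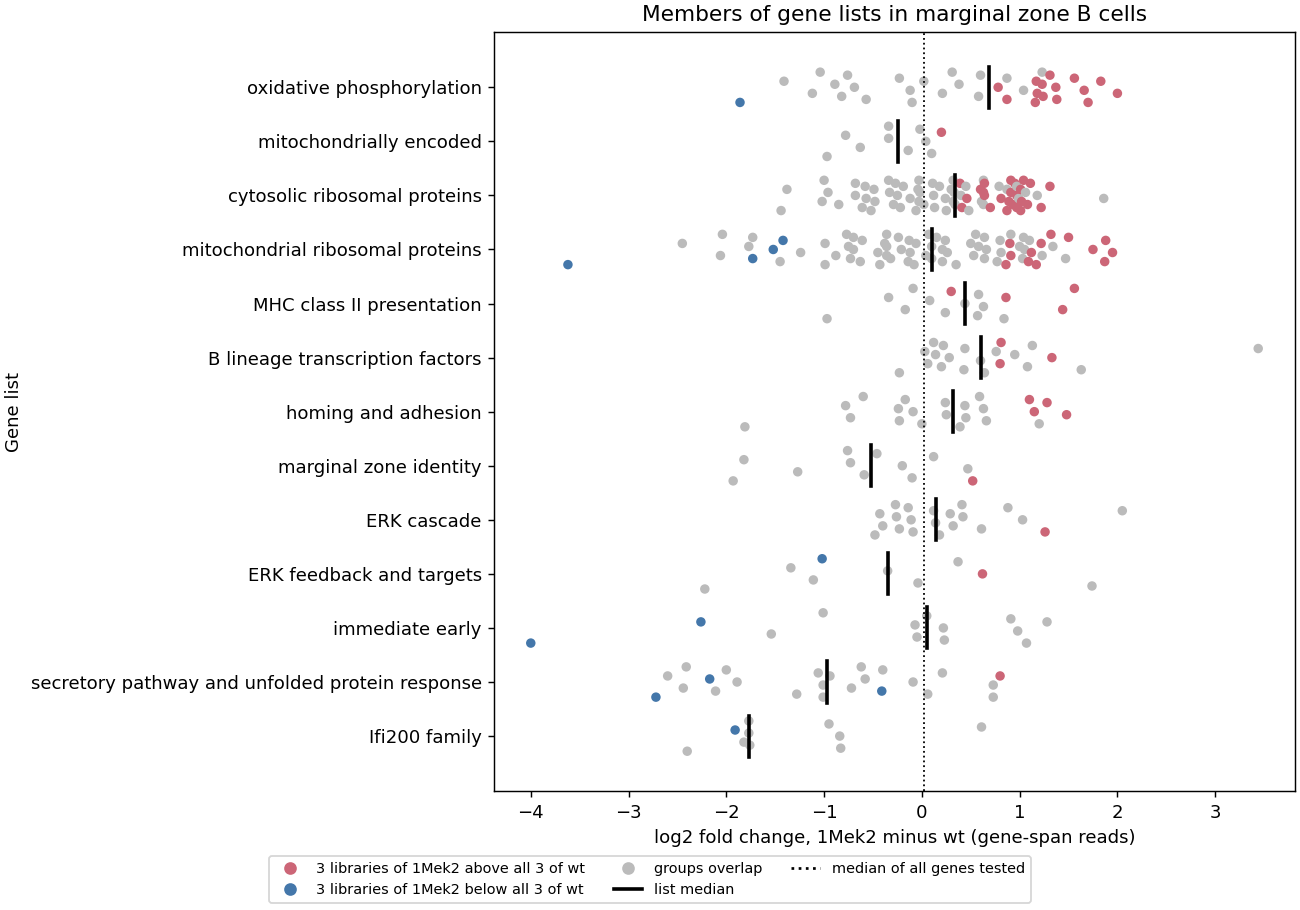
log2 fold changes (1Mek2 minus wt) of the tested members of 13 gene lists, 1 point per gene, coloured where the 3 libraries of the groups do not overlap, with list medians as black bars and the median of all genes (0.02) dotted. Red points gather in oxidative phosphorylation (15 of 36) and cytosolic ribosomal proteins (25 of 77), and the medians of the unfolded protein response (-0.97) and the Ifi200 family (-1.76) lie to the left.

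The ERK pathway's own genes showed little, and their counts stand beside 7.25% of all genes higher and 7.11% lower without overlap. Of 21 members of the RAS, RAF, MEK and ERK cascade tested, Map2k2 alone was separated, and the list's median was 0.14. Of 19 feedback and target genes 9 were expressed enough to be tested. Of these 9, 1 was higher (Elk3, an ETS factor) and 1 lower (Dusp5, an ERK phosphatase) without overlap. Dusp5 was low throughout, at 1.68, 1.23 and 0.802 CPM in wt and 0.733, 0.575 and 0.529 in 1Mek2 (-1.02 ± 0.9). On exon reads 2 of 9 were higher and 0 lower (all genes 7.55% and 7.18%). Myc was at 37.5, 218 and 25.3 CPM in wt and 36.7, 23.5 and 50.5 in 1Mek2, its log2 fold change of -1.34 resting on wt replicate 2 and becoming 0.25 without it. Spred2, an inhibitor of RAS signalling, was at 5.83, 5.91 and 45.8 CPM in wt and 1.47, 3.35 and 7.46 in 1Mek2, with overlap, and its log2 fold change of -2.22 became 0.28 on exon reads. Of 13 immediate early genes 2 (15.4%) were lower without overlap and 0 higher, a small number to set beside 7.11%. On exon reads 1 was lower and 1 higher (all genes 7.18% and 7.55%). Of the 13, 7 had a positive log2 fold change, and the list's median was 0.05. Egr1 was at 1.28 ± 0.86 and Nr4a1 at 0.91 ± 1.03, each with overlap. Egr3, an early growth response factor, was at 6.96, 16.5 and 11.6 CPM in wt and 2.93, 2.82 and 1.59 in 1Mek2 (-2.26 ± 1.04). Fosb, a partner of JUN in AP-1, was at 7.35, 0.557 and 3.47 CPM in wt and 0.163, 0.262 and 0.264 in 1Mek2, which is close to what 3 counts amount to.

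Genes of marginal zone identity leaned lower without separating. Of 12 tested, 9 had a negative log2 fold change and the median was -0.52, but only Dtx1 was separated, and it was higher. Over all genes 7.25% were higher and 7.11% lower without overlap. Cd1d1, which presents lipids, was at 77.1, 322 and 16.2 CPM in wt and 23.4, 16.4 and 69.1 in 1Mek2. Its log2 fold change of -1.93 became -0.33 without wt replicate 2. The tetraspanin gene Cd9 was at 75.2, 217 and 41.6 CPM in wt and 16.0, 44.9 and 33.5 in 1Mek2 (-1.82 ± 0.71, adjusted p 0.531), and -0.88 without that library. Dtx1 was at 827, 399 and 801 CPM in wt and 1020, 994 and 896 in 1Mek2 (0.52 ± 0.43), but its log2 fold change was -0.01 after GC correction.

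Homing and adhesion genes, a list of receptors, integrins and signalling proteins, had 4 of 22 members higher without overlap and 0 lower (median 0.32), beside 7.25% and 7.11% of all genes. On exon reads 2 of 23 were higher (all genes 7.55%), with a median of 0.09. Without wt replicate 2 there were 6 higher and 0 lower of 23 (all genes 9.39% and 9.67%). S1pr1, which draws marginal zone B cells towards blood sphingosine-1-phosphate, was at 591, 584 and 2320 CPM in wt and 3320, 2410 and 2730 in 1Mek2 (1.28 ± 0.56). S1pr4, a related receptor, was at 35.6, 27.3 and 41.9 CPM in wt and 98.9, 84.5 and 108 in 1Mek2 (1.48 ± 0.54). Ccr6, the receptor of CCL20, was at 159, 179 and 439 CPM in wt and 475, 474 and 771 in 1Mek2 (1.15 ± 0.50). In S1pr1 and Ccr6 the male wt replicate 3 was the wt library nearest to the 1Mek2 range, and without it the log2 fold changes were 2.29 and 1.79. On exon reads the groups of Ccr6 overlapped. In TPM, which has no TMM scaling, the groups overlapped in S1pr1 (up to 2750 in wt, from 2040 in 1Mek2). Ccr6 overlapped in TPM too (up to 354 in wt, from 248 in 1Mek2). Klf2, a transcription factor that promotes S1pr1 expression in lymphocytes, was also separated upward, with a log2 fold change of 1.93.

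B lineage transcription factors had positive log2 fold changes in 20 of 21 members, with a median of 0.60 (0.22 without wt replicate 2). In this list 3 were higher without overlap (6 on exon reads). Over all genes 6562 of 12907 were positive, and 7.25% were higher and 7.11% lower without overlap (7.55% and 7.18% on exon reads). Bach2, which restrains plasma cell differentiation, was at 432, 234 and 595 CPM in wt and 1370, 1120 and 674 in 1Mek2 (1.33 ± 0.48), but on exon reads the groups overlapped, with 0.65. Irf8 and Pou2af1 were the other two. Of 15 genes of antigen presentation on MHC class II, 4 were higher without overlap and 0 lower (median 0.44), beside the same shares of all genes. On exon reads 8 of 17 were higher and 0 lower, with a median of 0.90. Ciita, the master activator of the class II genes, was at 368, 331 and 579 CPM in wt and 1660, 919 and 884 in 1Mek2 (1.44 ± 0.46). H2-DMa, which loads peptides, was at 463, 520 and 226 CPM in wt and 1520, 738 and 1310 in 1Mek2 (1.56 ± 0.48). Cd74, the invariant chain, was separated too, but not in TPM (up to 21700 in wt, from 20700 in 1Mek2). H2-Ab1, H2-Aa and H2-Eb1 overlapped.

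Genes of the secretory pathway and the unfolded protein response, which fold and export antibody, had a median of -0.97, with 19 of 24 members negative. In all, 3 (12.5%) were lower without overlap and 1 (4.17%) higher, beside 7.11% and 7.25% of all genes. On exon reads 2 were lower and 3 higher (all genes 7.18% and 7.55%). Xbp1, the transcription factor of this response, was at 62.3, 223 and 13.5 CPM in wt and 19.8, 9.36 and 20 in 1Mek2, with overlap (-2.60 ± 0.90). Pdia3, a disulfide isomerase, was at 116, 638 and 84.4 CPM in wt and 46.5, 59.1 and 80.1 in 1Mek2 (-2.17 ± 0.72), and its groups overlapped on exon reads. wt replicate 2 was the high library in both, and without it Xbp1 was at -1.19, Pdia3 at -0.68 and the list's median at -0.36. In follicular cells the median was 0.67.

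The Ifi200 family of DNA sensors on chromosome 1 was negative in 9 of 10 members, with a median of -1.76 (-1.19 without wt replicate 2, -1.10 on exon reads). Ifi208 was at 21.1, 42.8 and 47.7 CPM in wt and 7.90, 10.5 and 11.3 in 1Mek2 (-1.91 ± 0.77) and was the only member separated. Mndal was at 480, 857 and 253 CPM in wt and 19.8, 323 and 125 in 1Mek2, with overlap (-1.77 ± 0.80, and -1.13 on exon reads). These genes are neighbours of similar sequence, so reads may be split between them.

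Signalling lists were mixed, and their counts stand beside 7.25% of all genes higher and 7.11% lower without overlap. Of 26 B cell receptor signalling genes, 2 were higher and 2 lower without overlap, and 6 and 2 on exon reads (all genes 7.55% and 7.18%). Cd79a, a signalling chain of the receptor, was at 1740, 1340 and 1670 CPM in wt and 4300, 2650 and 4100 in 1Mek2 (1.22 ± 0.41). Dapp1, an adaptor below the receptor, was at 38.9, 98.8 and 180 CPM in wt and 32.6, 22.9 and 30.1 in 1Mek2 (-1.89 ± 0.65). Without wt replicate 3 Dapp1 was at -1.24, and on exon reads its groups overlapped, with -0.53. Toll-like receptor genes had 1 higher and 1 lower of 21, and BAFF, CD40 and NF-kB genes 3 higher and 0 lower of 19, among them the inhibitor gene Nfkbib (1.65 ± 0.50). In the Notch list 2 of 18 were higher and 0 lower. Rfng, a glycosyltransferase that modifies NOTCH, was at 15.7, 0.968 and 3.31 CPM in wt and 42.3, 63.7 and 55.1 in 1Mek2 (3.01 ± 1.00, and 4.65 without wt replicate 1).

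Survival, stress and growth lists had few separated members, read beside the same 7.25% and 7.11% of all genes. Mcl1, an anti-apoptotic gene of the BCL2 family and 1 of 2 lower members of 12, was at 141, 305 and 216 CPM in wt and 100, 71.7 and 120 in 1Mek2 (-1.18 ± 0.47). Of 14 stress and heat shock genes 3 were lower and 0 higher, with Dnaja1, a co-chaperone of HSP70, at 48.1, 129 and 36.9 CPM in wt and 19, 24.1 and 21.2 in 1Mek2 (-1.74 ± 0.69, and -0.98 without wt replicate 2). Of 21 interferon response genes 2 (9.52%) were lower and 0 higher. Mx2, an antiviral GTPase, was at 16.9, 11.6 and 40.8 CPM in wt and 4.97, 4.45 and 3.7 in 1Mek2 (-2.40 ± 0.94). Cell cycle genes had 2 lower of 18, glycolysis genes 0 of 15 in either direction, and proteasome subunits 3 higher of 38. The proteasome median of -0.38 became 0.11 without wt replicate 2 and -0.09 on exon reads.

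Markers of other cells moved with the groups, and their part in these results was not tested. The summed CPM of 13 macrophage genes was 115, 121 and 52.7 in wt and 267, 238 and 387 in 1Mek2, with an exact two-sided permutation p of 0.1, the smallest that 3 against 3 allows. Members did not move together. C1qa and C1qc were higher without overlap, whereas Marco (0.43, 4.86 and 8.55 CPM in wt, 0.0814, 0.209 and 0.212 in 1Mek2) and Timd4 were lower without overlap. C1qb overlapped, and Adgre1 reached 105 CPM in 1Mek2 replicate 1 but 9.26 and 3.91 in replicates 2 and 3. Cd163 and Siglec1 were at or below 0.581 CPM in every library. The sum of 13 T cell genes was 88.6, 122 and 19.2 in wt and 451, 161 and 134 in 1Mek2 (exact p 0.1), mostly through Lck, whose groups overlapped. Cd3d went the other way without overlap, at 1.21, 3.68 and 1.76 CPM in wt and 0.326, 0.0523 and 0.37 in 1Mek2. Cd3e was at or below 3.39 CPM. Of the 13 T cell genes, 3 (Trac, Trbc1 and Trbc2) had 0 gene-span counts in all 6 libraries and added nothing to the sum. On exon reads each of these overlapped between the groups. Trac reached 17.5 CPM in wt replicate 2 and Trbc1 12.4 CPM in 1Mek2 replicate 3. Neutrophil genes summed to 187, 2.46 and 43.7 CPM in 1Mek2 and to at most 0.802 in wt (exact p 0.1), S100a8 reaching 68.7 CPM in 1Mek2 replicate 1 and 0 in replicate 2. Dendritic cell, natural killer, erythroid, platelet and stromal sums overlapped between the groups on gene-span counts. On exon reads, natural killer genes summed to at most 47.7 CPM in wt and at least 50.7 in 1Mek2. Stromal genes summed to 97.8, 169 and 194 in wt and 274, 266 and 202 in 1Mek2 (exact p 0.1 for each). Both sums were higher in 1Mek2 without overlap, but few members carried them. Prf1 and Pecam1 were the largest members in wt, and each overlapped between the groups. Nkg7 was at 60.2 CPM in 1Mek2 replicate 3, Madcam1 at 95.3 in replicate 1 and Cdh5 at 20.8 in replicate 3, each far above the other 1Mek2 libraries. Col1a1, Dcn and Lum were at or below 0.197 CPM in every library.

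The difference between the genotype effects of marginal zone and follicular cells was tested over 15230 genes, with 1 called (0.00657%) and 1425 (9.36%) at an unadjusted p under 0.05. The called gene was A430005L14Rik (chr4:154041694-154046382), named here because it was the only one. Scaled over both subsets it was at 32.3, 57.2 and 44.7 CPM in marginal zone wt and at 1.33, 1.03 and 2.47 in marginal zone 1Mek2. In follicular cells it was at 26.6, 38.0, 21.1 and 77.2 CPM in wt and at 72.7, 75.3, 50.3 and 51.5 in 1Mek2. The 3 marginal zone libraries labelled 1Mek2 were thus below all 11 others. The interaction was -5.41 ± 0.75 on the log2 scale with an adjusted p of 0.0288 by edgeR. It was not called by limma voom (adjusted p 0.105), with the 4 animals that gave both subsets and the animal as a block (0.810), or without any of 11 of the 14 libraries in turn (up to 0.188); the direction was the same each time.

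In follicular cells Polr2f had a log2 fold change of 1.32 ± 0.51 and Mettl26 one of 0.86 ± 0.45. The follicular medians also went with GC content, from -0.28 in the lowest of the 5 GC groups to 0.47 in the highest. Cldnd1 was at 0 ± 0.56, Exosc9 at -0.01 ± 0.71 and Tbp at -0.07 ± 0.77 in follicular cells. Their interactions were -4.47, -4.16 and -3.63 with adjusted p of 0.293, 0.362 and 0.424, so a difference from follicular cells was not called for these 3. The subsets share 4 animals but no library.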

How the data were processed

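The authors deposited raw counts over 50763 genes and TPM for 41075 entries. Per the submitters' processing notes, the tools were featureCounts 2.0.3, STAR 2.7.11a and Trim Galore 0.6.5, with build GRCm39; strand is not stated. Per the file headers, each gene was counted as 1 interval for 50760 genes, so introns are included; 1849 genes were at 0 counts despite a mean of at least 10 exon reads, immunoglobulin genes and Xist among them. TPM times exonic length gave whole reads for 100% of values checked (tolerance 0.02). Groups came from the labels.

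The test was edgeR 4.0.16 (R 4.3.3; filterByExpr, TMM, robust quasi-likelihood, Benjamini-Hochberg at 0.05); alternatives used limma 3.58.1, DESeq2 1.42.0, exon reads, each library left out, a sex term and GC-corrected offsets. The script was tested on simulated data. SE were derived from the test statistic. Named genes: Map2k1, Map2k2, the 12 of lowest p per direction without overlap and with a mean of at least 5 CPM, 3 members of lowest p per list, and subset markers; others named (Ndufb8, Ndufb5, Elk3, Dusp5, Irf8, Pou2af1, some MHC and mitochondrial genes) were chosen after seeing values. Genes and lists were chosen with earlier results of these data known. Reads are not independent molecules. Replicate numbers do not pair animals. Some gene lists are not described here.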

Additional observations from a re-analysis of the deposited data

Results flagged for a closer look

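A430005L14Rik differed between the subsets in its genotype effect by a test of the difference, with an interaction of -5.41 on the log2 scale. In the follicular libraries used for marker levels, 20 combinations of a gene and a genotype group of 4 libraries were checked for a library standing apart. Chance gives about 1 in 20 for separate checks, but these checks used the same 8 libraries again for each gene. Follicular wt replicate 4 stood apart with Cd1d1 at 97.7 CPM (others 8.06 to 16.2), Cd9 at 38.0, S1pr3 at 23.6 and Fcer2a at 1070. Follicular 1Mek2 replicate 2 stood apart with Cd1d1 at 89.2 CPM, S1pr3 at 143 and Fcer2a at 1160 (others 236 to 385). Cr2 was at 719 CPM in follicular 1Mek2 replicate 1 and at 837 in follicular wt replicate 1. Groups of 3 marginal zone libraries cannot be checked this way.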

How the results depend on the processing

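The genotype effect called 0 genes in all alternatives run but 3: 207 without a low-count filter (78 of them without overlap), 201 with DESeq2 and 1 with all 12 groups in a single fit. Leaving out each library in turn gave 0 calls each time, with 732 to 2035 genes at an unadjusted p under 0.05. With the replicate block there were 0 calls; same-numbered libraries had correlations of -0.011, -0.085 and -0.083, so the numbers only name samples. For the difference between subsets, 0 genes were called by limma voom and with the 4 shared animals as a block, and leaving out each library gave 0 to 9 calls (9 without marginal zone wt replicate 3, 2 without 1Mek2 replicate 3). The genes examined were largely chosen for low p or no overlap in these same libraries, so their signs were in part fixed by that choice. With that limit, 103 of 108 kept their sign under all 19 alternatives. The exceptions were Map2k1 (-0.51 to 0.30 with a library left out, positive without wt replicate 3), Dtx1 (-0.01 after GC correction and -0.18 on GC-corrected exon reads), Spred2 (0.28 on exon reads, 0.35 with GC correction too), Myc (-1.77 to 0.25 with a library left out, positive without wt replicate 2, 0.22 with GC correction too) and Ccr7 (0.03 with GC correction and without wt replicate 2). The causes were not tested. The GC corrections were chosen after seeing the data.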

Other observations

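Ighm, Ighd, Ighg1 and Igkc, which the count table holds at 0, were read from TPM. Ighm, the mu heavy chain of IgM, was at 3110, 5700 and 1430 TPM in wt and 1470, 1340 and 974 TPM in 1Mek2, with overlap (exon-read log2 fold change -0.66 ± 0.51, adjusted p 0.690 by edgeR). Ighd was at 261, 1530 and 522 TPM in wt and 548, 512 and 291 TPM in 1Mek2, with overlap. Igkc, the kappa constant gene, ran from 12700 to 16700 TPM in wt and from 12300 to 14200 in 1Mek2. Its exon-read log2 fold change of 0.48 ± 0.45 was positive after TMM scaling. The exon TMM factors were 1.36, 1.278 and 0.94 in wt replicates 1, 2 and 3 and 0.811, 0.885 and 0.853 in 1Mek2. Ighg1, of class-switched IgG1, was at 563, 1.90 and 47.8 TPM in 1Mek2 and at 3.26, 26.4 and 2.67 in wt, so 1Mek2 replicate 1 stood far above the others. Of 83 kappa variable genes tested on exon reads, 14 were lower and 0 higher without overlap, beside 7.18% lower over all genes on exon reads, and these genes share near-identical sequence. These genes were chosen after their values were seen.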
